A study of Mus musculus and Canis lupus familiaris and Equus caballus with 9 samples.

Results

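Mouse NRSF peaks that lie close to another peak of the same list are described here. They were chosen by position alone: the midpoint of each lay within 10 kb of the midpoint of another peak, after a crowded stretch of chromosome 4, with 65 peaks between positions 145387985 and 147985595, had been left out. Of the other 2292 of the 2357 mouse peaks, 201 had such a neighbour (8.77%). The 4 peak lists of the series, for mouse, dog, horse and human, held 12075 peaks; no sample label used here names the human list. The mouse list rests on 2 NRSF immunoprecipitated samples of RAW264.7 cells, a transformed macrophage line of BALB/c mice, with 1 input DNA sample of the same line that had no antibody. No treatment is named in the labels, and the cells were at passages 13 to 15. Per the labels, the cells were fixed with 1% formaldehyde, their chromatin was sheared to between 200 and 300 bp, and NRSF was precipitated with the monoclonal antibody 12C11-1B11. There is 1 list for both replicates and each of its lines holds only a peak's chromosome and limits, with no height, no p-value and no value per replicate. Replicate error therefore cannot be given, whether both peaks of a pair were found in each replicate is not known, and nothing is known of read depth. Counting error is all that the intervals cover. Peak positions cannot check the identity of the cells.

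The zinc-finger protein NRSF (REST) silences neuronal genes outside the nervous system. It binds a long DNA element, RE1 or NRSE, made of a left and a right part, and it recruits corepressors such as CoREST and Sin3 with their histone deacetylases. Several neuronal genes are known to carry more than one RE1 element, near the promoter and within the gene.

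The sequences below show what lay under peaks with a close neighbour where the RefSeq table (build GRCm38.p6, the assembly that mm10 denotes) held a promoter window, from 250 bases before to 50 bases after a gene start. No other peak sequence was used here. Each is the stretch of the window that lies inside the peak, on the strand of the gene. Capitals mark the core of the left part, CAGCACC, and that of the right part, GGACAGC, searched on both strands. On the opposite strand they read GGTGCTG and GCTGTCC, and they can share 4 bases, as once in the Zfp672 window. The Lhx3 window was shown for its complete element, those at Gm31317 and Lhfpl5 for a left core followed, after 2 bases, by 7 letters of which 6 equal the right core (on the opposite strand at Lhfpl5), that at Zfp672 for matches to both cores without the canonical arrangement, and those of Chrnb2 and Celf3 as windows with no exact match. The stretches lie at chr2:26208200-26208475 (minus strand), chr11:98314086-98314385 (minus), chr17:28575469-28575768 (plus), chr11:58323064-58323335 (minus), chr3:89764583-89764665 (minus) and chr3:94478045-94478235 (plus).
Lhx3: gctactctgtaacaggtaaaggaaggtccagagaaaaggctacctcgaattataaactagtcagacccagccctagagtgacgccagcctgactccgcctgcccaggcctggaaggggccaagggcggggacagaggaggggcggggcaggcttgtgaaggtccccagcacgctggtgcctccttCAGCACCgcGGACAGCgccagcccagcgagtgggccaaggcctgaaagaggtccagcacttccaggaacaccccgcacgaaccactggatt
Gm31317: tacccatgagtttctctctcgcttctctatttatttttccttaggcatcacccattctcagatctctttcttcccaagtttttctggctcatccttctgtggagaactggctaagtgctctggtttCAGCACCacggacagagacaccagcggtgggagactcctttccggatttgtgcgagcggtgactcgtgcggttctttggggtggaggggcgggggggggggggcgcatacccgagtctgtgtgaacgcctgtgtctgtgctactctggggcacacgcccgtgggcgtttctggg
Lhfpl5: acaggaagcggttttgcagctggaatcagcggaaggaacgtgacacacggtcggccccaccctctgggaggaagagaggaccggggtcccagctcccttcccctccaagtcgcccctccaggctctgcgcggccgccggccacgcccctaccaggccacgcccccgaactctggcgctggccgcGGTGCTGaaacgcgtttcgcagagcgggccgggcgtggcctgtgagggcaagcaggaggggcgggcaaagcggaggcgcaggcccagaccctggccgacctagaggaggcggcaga
Zfp672: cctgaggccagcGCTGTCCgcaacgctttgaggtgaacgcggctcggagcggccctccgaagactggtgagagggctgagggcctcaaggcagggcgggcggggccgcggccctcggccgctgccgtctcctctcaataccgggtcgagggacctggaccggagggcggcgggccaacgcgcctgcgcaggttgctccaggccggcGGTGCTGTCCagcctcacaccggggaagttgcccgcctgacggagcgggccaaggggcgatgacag
Chrnb2: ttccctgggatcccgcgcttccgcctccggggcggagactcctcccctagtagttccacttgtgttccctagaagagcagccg
Celf3: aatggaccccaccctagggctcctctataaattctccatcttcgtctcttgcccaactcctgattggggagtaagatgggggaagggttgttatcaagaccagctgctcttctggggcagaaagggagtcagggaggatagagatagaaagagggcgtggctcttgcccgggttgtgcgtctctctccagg

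At Lhx3, the left and the right core stood on the same strand with 2 bases between them, the arrangement of the canonical RE1 element. Peaks with a close neighbour overlapped 13 promoter windows of 8 genes, of which 4 held the left core, 4 the right core and 1, that of Lhx3, both at the spacing of 2 bases. Of the 132 windows overlapped by other mouse peaks, 30 held the left core, 42 the right core and 5 both at that spacing. Among all 32851 windows the shares were 7.14% for the left core, 6.56% for the right core and 0.0213% for both at that spacing, which is 7 windows. A match is a description and not a mapped binding site, and windows of 1 gene can overlap each other.

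The 201 peaks formed 97 groups, in which each peak lay within 10 kb of the next. Of these, 91 were pairs, 5 held 3 peaks and 1 held 4. Sizes and spacings follow from the way the peaks were chosen and are given as a description. The 104 spacings between neighbouring midpoints ran from 470 to 9940 bp, with a median of 3382 bp and quartiles of 1191 and 6640 bp. Every peak is 400 bp wide and none overlapped, so no spacing under 400 bp occurs in the list; how the authors treated closer sites is not stated. Spacings of up to 1 kb were the most frequent, with 25, followed by 15 between 1 and 2 kb. Each further step of 1 kb held 4 to 11 spacings up to 10 kb, and 4 to 10 from 10 to 20 kb, where peaks no longer counted as neighbours. At the limit itself, the widest pairs inside lay 9940 bp apart, at Neurod2 and at Rpl11, and 9840 bp apart on chromosome 5 with no gene in reach. The closest pairs just outside lay 10040 bp apart at Zdhhc22 and 10160 bp apart at Ina and Nt5c2.

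Spacings of up to 1 kb made up a smaller share at protein-coding genes than elsewhere. A gene was counted at a group when it held the midpoint of a peak of the group or lay no more than 10 kb from one. A wide group thus searches a longer stretch for genes than a tight one. This favours a protein-coding gene at wide spacings, so the classes are not independent of the spacing. In all, 63 groups (127 peaks) had a protein-coding gene, 16 groups (37 peaks) only genes of other kinds such as pseudogenes and long non-coding RNAs, and 18 groups (37 peaks) no annotated gene. Of the 64 spacings at protein-coding genes 9 were up to 1 kb (14.1%), compared with 8 of 21 where only other genes lay (38.1%) and 8 of 19 where no gene lay (42.1%). The median spacing was 4055, 3160 and 1215 bp in these 3 classes. Of the 8 short spacings where no gene lay, 4 were on chromosome X. Several of those where only other genes lay were at pseudogenes of vomeronasal receptors. A short spacing of 590 bp at the receptor gene Vmn2r39 fell in the protein-coding class. The pattern was noticed in the data, and neither it nor its dependence on such stretches was tested.

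**Figure D1:**
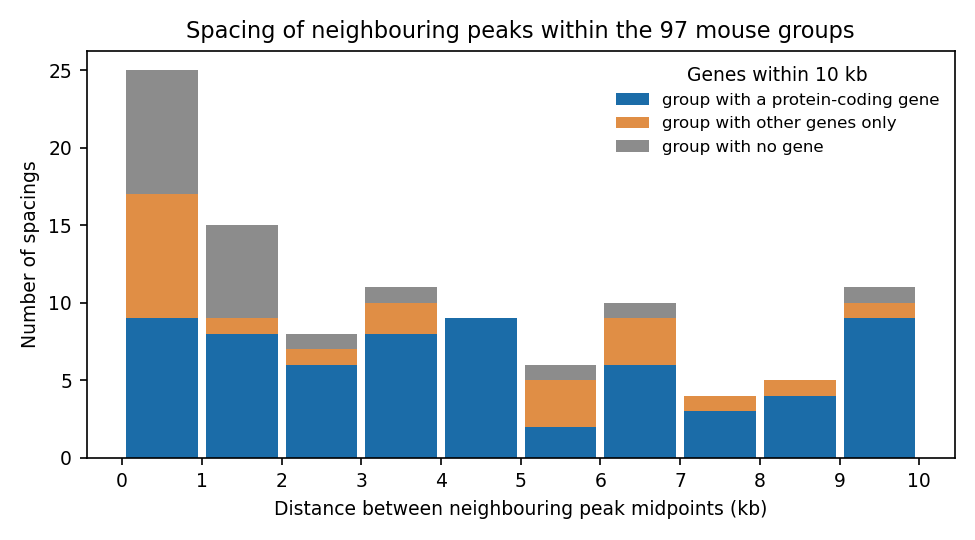
Number of spacings between neighbouring peak midpoints (vertical axis) by distance in kb (horizontal axis, steps of 1 kb) in the 97 mouse groups, coloured by the kind of gene within 10 kb of the group. Of the 25 spacings up to 1 kb, 9 belong to groups with a protein-coding gene, whereas from 4 to 5 kb all 9 do.

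Among the neuronal lists, that of transcription and RNA regulators had the largest share of genes at groups. Of its 48 genes 10 had a grouped peak (20.8%), against 84 of all 21900 protein-coding genes (0.384%). Of the 48, 30 had any mouse peak outside the left-out stretch, so that 33.3% of the genes with a peak had a grouped one; over all protein-coding genes this was 84 of 1624 (5.17%). Across 7 neuronal lists together, 16 of 320 genes had a grouped peak and 160 had any peak. Without the transcription and RNA regulators, 6 of 272 genes had a grouped peak (2.21%), which is 6 of the 130 with any peak (4.62%), close to the 5.17% over all protein-coding genes. A gene was counted through its whole span, so a long gene takes in close peaks more easily than a short one. Gene length and the number of peaks per gene were not taken into account. The lists were assembled with earlier results on these data and reported NRSF targets in view, so the counts are not independent evidence, and no test was made of them.

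The other neuronal lists had 0 to 2 genes each at groups. Of the genes with any peak, grouped ones were 2 of 28 ion channels (7.14%), 2 of 18 genes of neuroendocrine secretion (11.1%), 1 of 25 transmitter receptors and 1 of 29 genes of cytoskeleton, adhesion and guidance (3.45%). They were 0 of 19 genes of synaptic release and 0 of 11 of transmitter synthesis and transport, where the share of 5.17% over all protein-coding genes would amount to about 1 gene or fewer in each. NRSF and its corepressors had none of 16, with Rest the gene among them that had any peak. Of 22 neuronal microRNA genes 1 had a grouped peak, against 1 of all 1228 microRNA genes (0.0814%), and it was the same gene, Mir124a-3. Of the control lists, myeloid markers had none of 31 (4 had any peak) and ribosomal and housekeeping genes 1 of 30, Rpl11 (4 had any peak).

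**Figure D2:**
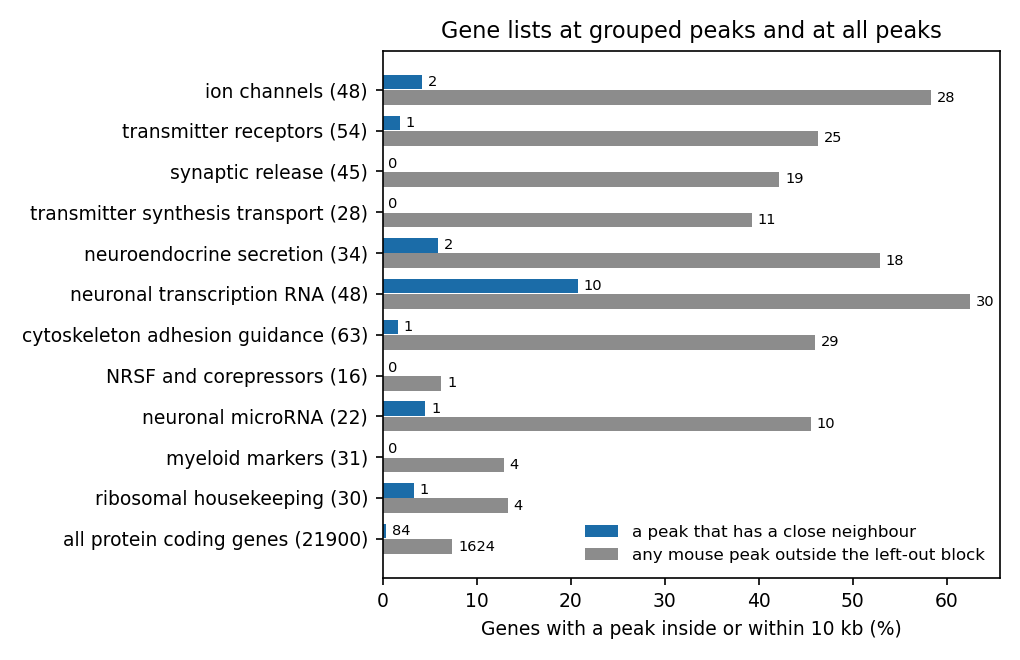
Share of the genes of each list (rows, with the number of genes matched) that had a grouped peak (blue) or any mouse peak outside the left-out stretch (grey) inside the gene or within 10 kb; the numbers at the bars are genes. Neuronal transcription and RNA regulators have 10 of 48 genes at grouped peaks, and each other list has 0 to 2; over all protein-coding genes 5.17% of those with a peak have a grouped one.

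Among the transcription factors, Lhx3, a LIM-homeodomain factor of motor neuron and pituitary development, had peaks at chr2:26205125-26205525 and chr2:26208075-26208475. Their midpoints lay 2924 bp downstream and 26 bp upstream of the closer of its listed starts, and the second holds the complete element printed above. The pair of its relative Lhx4 lay inside the gene (chr1:155722175-155722575 and chr1:155731215-155731615), at least 20311 bp from either gene end. Its peaks were 10612 and 19652 bp downstream of the 1 listed start, which itself lay inside the annotated gene. Neurod1, a proneural basic helix-loop-helix factor, had a peak 4199 bp upstream and one 2291 bp downstream of its start. Its relative Neurod2 had a single peak within reach, 1230 bp beyond the end of the gene on chromosome 11, and the other peak of that pair lay 110 bp upstream of the start of the long non-coding gene Gm31317. Pou4f2, a POU-domain factor of retinal ganglion cells, was flanked by its pair, with midpoints 1758 bp upstream of the start and 1444 bp beyond the far end of the gene (5082 bp from the start).

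RNA regulators showed both arrangements, pairs around the start and pairs deep inside the gene. Celf3, a neuronal RNA-binding protein, had peaks 260 bp upstream and 1470 bp downstream of a start, at chr3:94477835-94478235 and chr3:94479565-94479965, and both lay inside the neighbouring gene Riiad1 as well. Elavl3, a neuronal member of the Hu family, had peaks 1857 bp upstream and 1258 bp downstream of its start on chromosome 9. Srrm4, a neural splicing factor known to act on the Rest transcript itself, had its pair 37697 and 45877 bp downstream of the start. In Rbfox3, which encodes the neuronal nuclear antigen NeuN, the pair lay only 1535 bp apart in a gene of 421838 bp. Its peaks were 73866 and 75401 bp downstream of the 1 listed start, which itself lay inside the annotated gene. They were at least 195880 bp from either gene end. The pair in Celf4, on chromosome 18, lay 9385 bp apart and 76865 bp or more from either gene end.

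Of the channels and receptors, Chrnb2, the beta2 subunit of nicotinic acetylcholine receptors, had peaks 167 bp downstream and 5173 bp upstream of its start (chr3:89764265-89764665 and chr3:89769605-89770005). Kcnj6, a G-protein-gated potassium channel, had peaks 1961 bp downstream and 7089 bp upstream of a start on chromosome 16. Both peaks of Cacna1a, the pore subunit of P/Q-type calcium channels, lay inside the gene, 2190 bp apart and at least 130654 bp from its ends. Thus Chrnb2 and Kcnj6 had their start between the peaks, and Cacna1a carried the pair far inside.

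Of the secretory genes, Chga, which encodes the granin chromogranin A of dense-core granules, had peaks 4226 bp upstream and 314 bp downstream of its start on chromosome 12. Vgf, the precursor of secreted neuropeptides, held both peaks inside the gene, 925 bp apart, the closest spacing at any listed gene. Nefh, the heavy neurofilament subunit, had its pair outside the gene, the closer midpoint 1361 bp from its end; the same peaks lay inside the neighbour Ap1b1. Mir124a-3, a gene of the brain-enriched microRNA miR-124, had both peaks of its pair within 10 kb, the closer 438 bp away, at chr2:180894345-180894745, and the second 9095 bp from that. Over the 18 groups with any listed gene the median spacing was 5915 bp, and 1 of the 18 spacings was up to 1 kb.

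Grouped peaks were also placed relative to gene starts. There were 68 cases of a protein-coding gene within 10 kb of a group that had a start in the promoter table. All peaks lay downstream of the start closest to the group in 38 of them, on both sides in 16 and upstream in 14. The reach took in the whole gene and 10 kb beyond its far end, but only 10 kb before the gene. This way of choosing cases favours the downstream side, so no preference for a side can be read from the 68. Among the 12 cases at neuronal listed genes 8 had peaks on both sides, 4 had all downstream and 0 all upstream, against 8, 34 and 14 of the 56 other cases. This split was noticed in the data and was not tested, and 1 group can be counted at several genes. Most of the 24 cases whose gene holds no peak are among the others, and 1 of the 24 had peaks on both sides. Among genes that hold a peak, both sides were taken in 7 of 10 neuronal listed cases and in 8 of 34 others. In 44 of the 68 cases the gene held at least 1 of the peaks, with 24 wholly downstream, 15 on both sides and 5 wholly upstream. Holding a peak by itself makes a wholly upstream group rare, so no preference for a side can be read from these 44 either. In those 5 cases, such as Ap1b1, the listed start lay inside the annotated gene, as did at least 1 peak counted as upstream. The table is not complete, so some genes, such as Nefh, Vgf and Cacna1a, had no listed start.

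**Figure D3:**
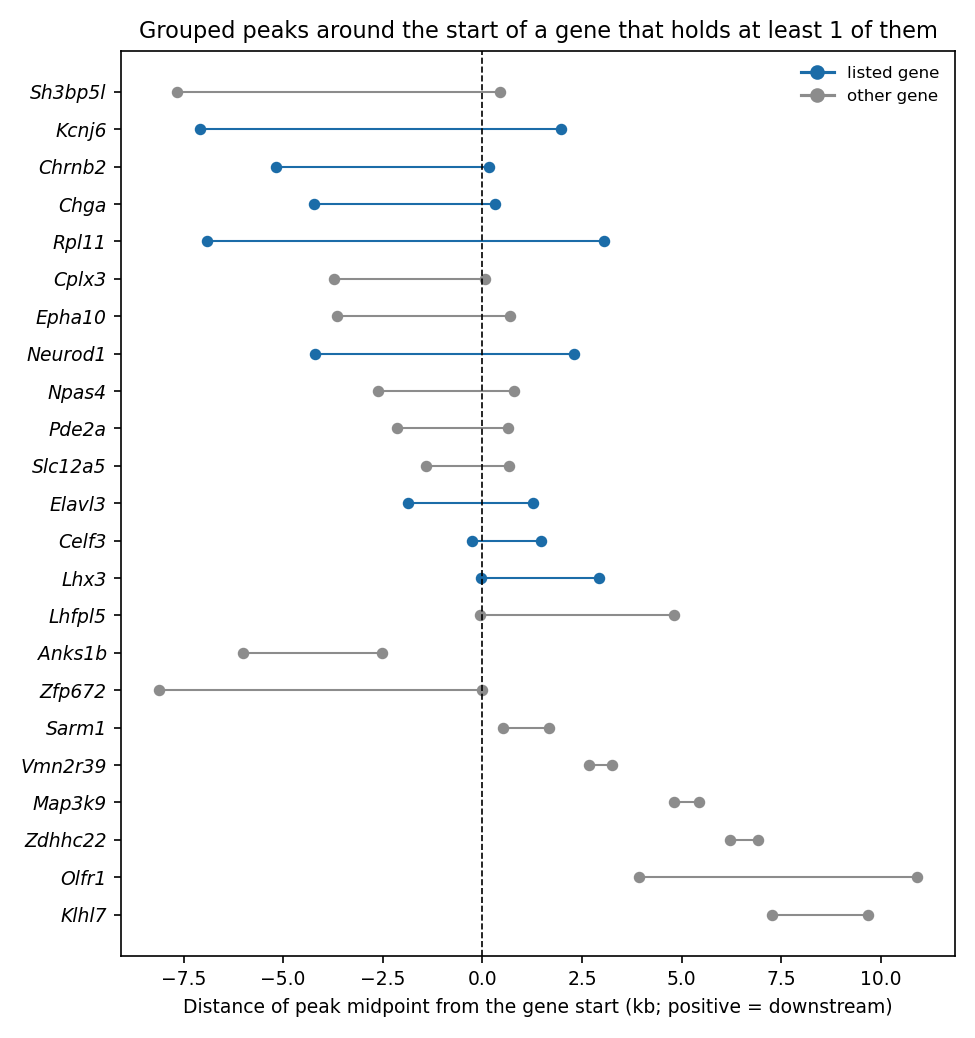
Distance of each grouped peak midpoint from the gene start closest to the group (kb, negative upstream). Shown are the 23 cases of a protein-coding gene that holds at least 1 of the peaks, with all peaks within 12 kb of the start. Genes that hold no peak of the group, such as Fgf18 and Ago1 with both peaks upstream, are left out. Each row is a gene and the line joins the peaks of 1 group. Chga, Chrnb2, Kcnj6, Neurod1, Elavl3, Celf3 and Lhx3 all have peaks on both sides of the start.

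Several genes of neuronal function outside the lists also had pairs, and they were named after their values had been seen. Slc12a5, the neuronal chloride transporter KCC2, had peaks 1413 bp upstream and 677 bp downstream of a start. Npas4, an activity-dependent transcription factor, had peaks 2624 bp upstream and 791 bp downstream, and Cplx3, a complexin of retinal synapses, had peaks 3729 bp upstream and 66 bp downstream. Epha10, an ephrin receptor, had peaks 3655 bp upstream and 695 bp downstream, and Lhfpl5, a component of the mechanotransduction complex of hair cells, 69 bp upstream and 4816 bp downstream. At Slc12a5, Npas4 and Lhfpl5 the start used lay inside the annotated gene, and so did both peaks. At Cplx3 and Epha10 the upstream peak lay outside the gene. Other pairs lay inside long genes, as in Atp2b2, a plasma membrane calcium pump, with peaks 38984 and 48134 bp downstream of a start. Camta1, a transcription activator, was the protein-coding gene with 2 groups, a pair 690 bp apart and another 4850 bp apart, both within a span of 802246 bp. In all, 45 groups (95 peaks) had every peak inside 1 annotated gene, and for 37 groups (75 peaks) this was a protein-coding gene.

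Some groups lay near several genes, so that a peak cannot be given to one of them. The pair between Gprin1 and Sncb, which encodes beta-synuclein, lay 1021 bp from Gprin1 at one side and 330 bp from Sncb at the other. A pair inside Sarm1, which acts in axon degeneration, lay 1150 bp apart, 509 and 1659 bp downstream of the listed start of Sarm1. The midpoint closer to Vtn lay 1875 bp from the start of Vtn. The 6 groups in which every peak lay within 1 kb of an annotated gene end (13 peaks) were a mixed set. They were the pairs at Celf3 and Riiad1, at D5Ertd579e and Gm32584, and at the olfactory receptor gene Olfr1 and nearby pseudogenes. The rest were groups in the pseudogenes Gm6392, Gm6789 and Gm8935. The last, on chromosome 3, held 3 peaks, with spacings of 630 and 1595 bp. Gm6392 (1602 bp) and Gm6789 (1771 bp) are so short that any midpoint inside them lies within 1 kb of an end.

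In their position relative to genes, the groups did not differ detectably from mouse peaks without a close neighbour. To count each group once, its peak with the lowest coordinate was compared with the 2091 other peaks. The shares of groups below refer to that peak alone. They therefore differ from the counts over all peaks of a group, with a protein-coding gene at 63 groups and no annotated gene at 18. Of the 97 groups 14 were within 1 kb of an annotated gene end (14.4%, exact 95% interval 8.12 to 23.0%), against 401 of the 2091 other peaks (19.2%, 17.5 to 20.9%; odds ratio 0.711, interval 0.369 to 1.28). A two-sided exact test after Fisher gave an adjusted p of 1.00. Inside a gene span lay 60.8% of groups and 58.6% of other peaks (odds ratio 1.10, 95% interval 0.709 to 1.71). A protein-coding gene lay within 10 kb of 61.9% of groups and 64.2% of other peaks (odds ratio 0.905, 0.585 to 1.42). No annotated gene lay within 10 kb of 21.6% of groups and 21.9% of other peaks (odds ratio 0.988, 0.572 to 1.64). The 4 adjusted exact p-values were all 1.00, with unadjusted values of 0.289 to 1.00. The shares are not shown to be equal, since the intervals take in odds ratios well below and above 1. Within 1 kb of a listed gene start lay 8 of 94 groups (8.51%) and 243 of 2034 other peaks (11.9%; odds ratio 0.686, interval 0.283 to 1.44; two-sided exact test, unadjusted p = 0.412), with chromosome 18 not covered.

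**Figure D4:**
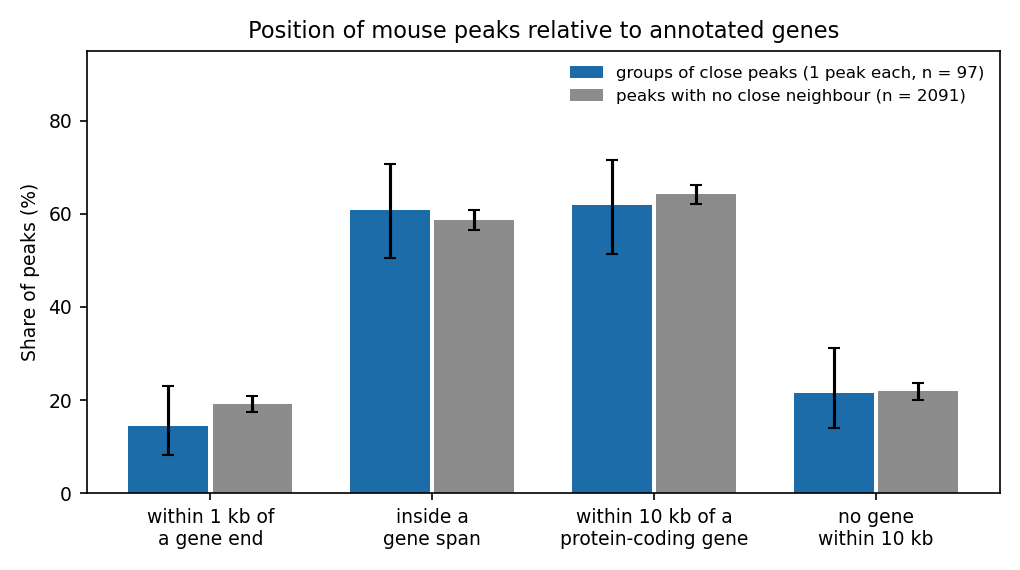
Share of peaks (%) in 4 positions relative to RefSeq genes, for the 97 groups (blue, the lowest peak of each) and for the 2091 mouse peaks with no close neighbour (grey); bars start at 0 and error bars are exact 95% intervals. The intervals overlap in every position, for example 14.4% against 19.2% within 1 kb of a gene end.

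Besides the neuronal genes, the groups included several in stretches of multi-copy genes, some tight and some wide. The largest group, of 4 peaks, lay on chromosome 7 inside Vmn2r-ps43, a pseudogene of the vomeronasal receptor family Vmn2r, whose members detect pheromones. Its peaks started at 8876075, 8878985, 8882145 and 8882715. A group of 3 peaks inside Vmn2r-ps51 started at 9890175, 9896235 and 9896805. The distances repeated between these groups: the last pair of peaks lay 6070 and 6640 bp from the first peak at Vmn2r-ps43, and 6060 and 6630 bp from it at Vmn2r-ps51. Pairs nearby were 590 bp apart inside Vmn2r39 and 580 bp apart at chr7:8607085-8607485 and chr7:8607665-8608065, against 570 bp between the last peaks of both larger groups. Another group of 3, with spacings of 690 and 470 bp, lay near Vmn1r-ps60, a pseudogene of the Vmn1r family. In all, 6 groups with 16 peaks lay on chromosome 7 below 15 Mb, and 5 groups with 10 peaks on chromosome 13 between 65 and 67 Mb, among them 2 at Vmn2r-ps98 and 1 at the zinc-finger gene Zfp640. Of the 5 spacings on chromosome 13, those of 685 and 730 bp were short and those of 6855, 7880 and 8640 bp were above the overall median, as was the pair at Obox3-ps3 on chromosome 7 with 6910 bp.

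On chromosome X the spacings were all short and no annotated gene was in reach. Its 7 groups held 15 of the 55 peaks on X (27.3%, exact 95% interval 16.1 to 41.0%), and none had an annotated gene within 10 kb. All 8 spacings were between 645 and 1730 bp. The first spacing of 3 groups was nearly equal, with 1220 bp at chr X from 4529310, 1205 bp from 31131285 and 1215 bp from 32067990. The nearest protein-coding genes of 4 of the groups were members of the multi-copy Btbd35f family, Btbd35f29 being closest at 12069 bp. How uniquely reads map to these stretches, and how alike their sequences are, was not tested. Of all 97 groups, 28 had another group within 1 Mb, and 18 of those lay on chromosomes 7, 13 and X. These chromosomes held 10, 7 and 7 of the 97 groups. The 18 include the pairs at Gprin1 and Sncb and at Fam193b and Tmed9, outside the stretch of chromosome 13 named above.

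The share of peaks with a close neighbour varied among the other chromosomes from 0 of 84 on chromosome 14 (exact upper limit 4.30%) and 2 of 129 on chromosome 1 (1.55%, exact 95% interval 0.188 to 5.49%) to 14 of 95 on chromosome 13 (14.7%, 8.30 to 23.5%). Chromosomes 11 and 7 held the most such peaks, 22 of 170 (12.9%) and 24 of 216 (11.1%). These intervals treat peaks as independent, which peaks of 1 group are not, and the differences were not tested. Of the widest and closest pairs not named so far, the pair at Ttll11 was 9490 bp wide and that at Igsf21 9540 bp, and pairs of 480 bp lay on chromosome 11 with no gene in reach and of 630 bp at Map3k9. The group of 3 peaks on chromosome 8, with spacings of 1870 and 6200 bp, lay inside the gene Gm9495.

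**Figure D5:**
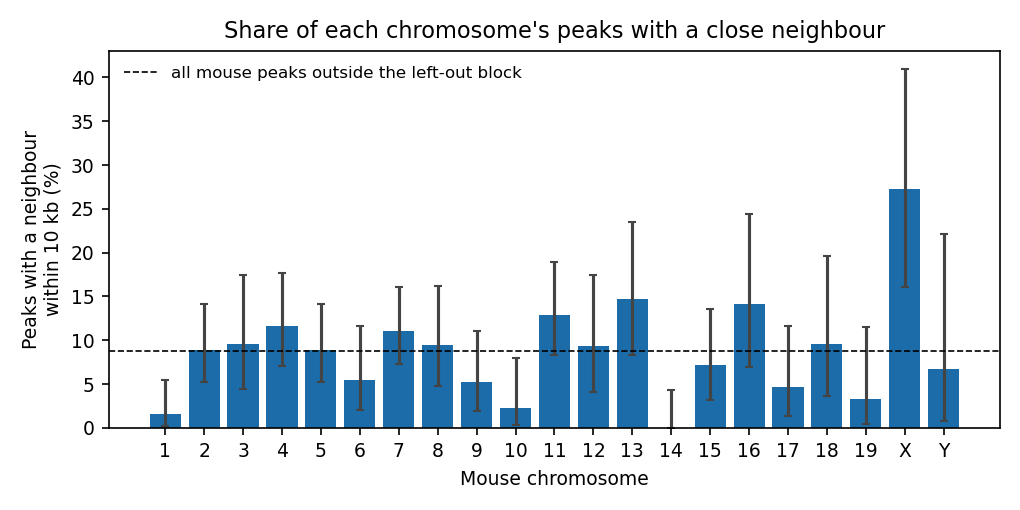
Share of the peaks on each mouse chromosome that had a neighbour within 10 kb (%), with exact 95% intervals as error bars and a dashed line at 8.77%, the share over all peaks outside the left-out stretch of chromosome 4. Chromosome X stands highest with 27.3%, and chromosome 14 has none.

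Across species, the mouse list without its left-out stretch had 201 of 2292 peaks in groups (8.77%), against 315 of 2273 in the dog list (13.9%), 367 of 2185 in the horse list (16.8%) and 1556 of 5260 in the human list (29.6%). The median spacing was 3382 bp in mouse, 2275 bp in dog, 3210 bp in horse and 830 bp in human. Spacings of up to 1 kb made up 24.0% of the mouse spacings, 27.2% in dog, 23.3% in horse and 59.3% in human. The cells differ as well, macrophages in mouse, the myelomonocytic leukemia line ML2 in dog and E.Derm skin fibroblasts in horse, and the human list is tied to no sample here. A crowded stretch was left out of the mouse list alone. The lists differ in length and no peak threshold is stated for them, so these are set side by side without a test.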

How the data were processed

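The authors deposited peak positions in bp, 1 list per species, with no score for any peak. The submitters' processing notes name Bowtie 0.12.8 and MACS 1.4.2, without their settings, and mm10 among the builds. The peak threshold, the way replicates were combined and whether positions count from 0 or 1 were not stated in those notes or the labels, which leaves 1 base of uncertainty.

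Midpoints were taken from start and end. The crowded stretch of chromosome 4 was left out before neighbours were sought. Gene spans were taken from the RefSeq annotation table for GRCm38.p6 (49997 genes), which gives no strand or exons, and gene starts and promoter sequences from a RefSeq table of 32851 windows without chromosome 18. Of 420 list entries 419 matched a gene. The members, lists and tests were chosen with earlier results of these data known. The groups were compared with other mouse peaks by Fisher's exact test on 4 positions relative to genes, with Benjamini-Hochberg adjustment over the 4; intervals are exact 95% (Clopper-Pearson for shares). Genes were named where a group held 3 or more peaks, where a listed gene lay at a pair (up to 4 per list, closest to a gene end first), for the 5 closest and 5 widest pairs, and where both peaks of a pair lay within 1 kb of a gene end. Any gene named beyond that rule was picked once its values were known, including Lhx4, Neurod1, Pou4f2, Celf4, Rbfox3 and Srrm4, as were the printed windows at Lhfpl5 and Zfp672. The alternatives were other reaches for neighbours and genes, other choices of the peak for each group, protein-coding genes only, and leaving out 1 Mb bins with 10 or more peaks. The grouping and the tests were tested on simulated data. Python 3.11.15, scipy 1.17.1, numpy 2.4.6 and pandas 2.3.3 were used.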

Additional observations from a re-analysis of the deposited data

How the results depend on the processing

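The number of peaks with a neighbour follows the reach: 77 peaks in 37 groups at 2 kb, 131 in 63 at 5 kb and 329 in 154 at 20 kb, against 201 in 97 at 10 kb. It was 187 in 91 without the 2 bins of 1 Mb that held 10 or more peaks, on chromosomes 7 and 13, 186 in 90 without chromosome X, and the same when the left-out peaks could serve as neighbours. No position test passed in any setting run (adjusted exact p of 0.351 or more), so changes of direction are between values that were never called. The odds ratio for gene ends was 1.09 with the highest peak of each group and 1.00 with a reach of 5 kb (just above 1 before rounding), and that for gene spans 0.924 with the highest peak. For protein-coding genes it was 1.02 without the dense bins, 1.10 without chromosome X, 1.41 for groups spaced over 2 kb and 1.02 with a reach of 20 kb. For no gene in reach it was 1.13 with neighbours within 5 kb and 1.02 with a gene reach of 5 kb. The settings without chromosome X and with groups spaced over 2 kb were chosen after the data were seen. Genes of the 7 neuronal lists at groups numbered 13 with gene spans only and 16 with a reach of 20 kb. The share of all protein-coding genes at groups was 0.269% with gene spans only and 0.507% at 20 kb, against 0.384% at 10 kb. The list count was 16 at 10 kb as well, so from 10 to 20 kb only the share over all protein-coding genes rose. No paired analysis was possible because the mouse list is 1 list for both replicates, with no value for either. With no peak heights, weak and strong peaks cannot be told apart.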
